A study of Mus musculus with 6 samples.

Results

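The MHC class II genes were followed across 6 mouse brain tumours: Ciita, their regulator, H2-Aa, H2-Ab1 and H2-Eb1, which encode chains of the class II molecules, Cd74, the invariant chain, and H2-DMa and H2-DMb1, which encode the peptide editor. All probes whose platform gene symbol was one of these 7 genes were taken, 11 of the 25697 probes of the array (7 of 16593 genes named there). There was 1 probe each for Ciita, H2-Aa, H2-Eb1, H2-DMa and H2-DMb1, with 2 for Cd74 and 4 for H2-Ab1. Of the 11 probes, 9 from 5 genes were tested between the genotypes. The Ciita and H2-Aa probes were detected on 1 array each and were not tested. Detected means a detection p-value under 0.05, and a tested probe was detected on at least 3 of the 6 arrays.

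Cells carrying floxed p53 alleles (p53fl/fl) and hEGFRvIII, a truncated and constantly active form of the human EGF receptor, were transplanted into SCID mice. In 3 tumours the cells were Olig2cre/+, with cre at 1 Olig2 allele and the other allele intact, and in the other 3 they were Olig2cre/cre, with cre at both alleles. Olig2 encodes a transcription factor of the oligodendrocyte lineage and of many gliomas. The tumours were collected when the hosts showed neurological symptoms, and the labels give ages of 45, 50 and 47 days for replicates 1, 2 and 3 of both genotypes. SCID hosts lack mature T and B cells and keep myeloid and NK cells. A tumour sample holds transplanted cells together with host cells, and whether each genotype stands for 1 transplanted line or several is not stated in the labels. The p-values below therefore speak of the spread among these 6 samples, part of which may be technical. In bulk tissue, more cells of a type and more RNA per cell cannot be told apart.

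MHC class II molecules carry peptides from the endosomal route to the cell surface, where CD4+ T cells read them. Their genes share a promoter unit, the X and Y boxes, to which RFX, CREB and NF-Y factors bind, and transcription depends on the coactivator CIITA, which is itself induced by interferon gamma. B cells, dendritic cells and activated macrophages express class II strongly, and resting microglia express little.

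Letters of this promoter unit were found in 3 of the members, shown here because it is the feature these genes are known to share. RefSeq promoter windows (GRCm38.p6, from 250 bases before to 50 bases after the start) were found for 4 of the 7 genes. Each window below has 300 bases and is written 5′ to 3′ along the gene's strand, with matches to the searched motifs in capitals. The motifs were the X1 box core GNAACNGAT, the X2 box TGACGTCA and the Y box TGATTGG, searched on both strands and chosen with these sequences in view. No match overlapped another.
H2-Eb1, chr17:34305617-34305916, plus strand: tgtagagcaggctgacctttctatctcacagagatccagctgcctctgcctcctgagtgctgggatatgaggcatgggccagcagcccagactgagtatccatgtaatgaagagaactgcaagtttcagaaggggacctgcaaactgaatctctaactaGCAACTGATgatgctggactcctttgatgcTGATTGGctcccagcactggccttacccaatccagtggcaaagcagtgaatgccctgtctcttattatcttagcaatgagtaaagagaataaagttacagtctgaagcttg
H2-DMb1, chr17:34152941-34153240, plus strand: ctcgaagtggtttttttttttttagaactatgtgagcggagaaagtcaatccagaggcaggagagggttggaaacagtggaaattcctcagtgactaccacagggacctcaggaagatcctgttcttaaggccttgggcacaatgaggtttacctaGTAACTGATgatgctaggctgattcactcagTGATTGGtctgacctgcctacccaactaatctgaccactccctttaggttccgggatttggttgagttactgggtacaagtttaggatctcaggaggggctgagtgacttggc
H2-Aa, chr17:34287774-34288073, minus strand: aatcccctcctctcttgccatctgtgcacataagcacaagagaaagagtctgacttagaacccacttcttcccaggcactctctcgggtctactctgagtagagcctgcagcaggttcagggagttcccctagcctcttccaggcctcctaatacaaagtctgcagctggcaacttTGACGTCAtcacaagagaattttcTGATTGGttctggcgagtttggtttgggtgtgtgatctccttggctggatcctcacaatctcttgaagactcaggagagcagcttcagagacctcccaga

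The H2-Eb1 window held the X1 core (GCAACTGAT) with its first base at -91 and the Y box at -61, a step of 30 bases. In H2-DMb1 the X1 core (GTAACTGAT) began at -94 and the Y box at -63, a step of 31 bases. H2-Aa held the X2 box at -74 and the Y box at -50. The 2 windows of H2-DMa, not shown here, held no exact match to these letters. Looser forms of the boxes were not searched, and whether these windows cover the start used in the tumours was not examined. Of 32851 promoter windows, 2.05% held the X1 core, 1.79% the X2 box and 7.82% the Y box, and 0.189% held the X1 core together with the Y box. A match describes the letters only.

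Class II transcripts were high in 1 tumour, Olig2cre/cre replicate 1, and near the Olig2cre/+ level in most of the other measurements. All 11 probes read highest in that tumour, including all 9 tested ones. Among all 14606 tested probes, 23.9% read highest there. The 9 tested probes lay 6.86- to 68.3-fold above the Olig2cre/+ mean in it, and 8 of them lay at least 4 log2 units above, a size chosen after the values were seen, where 0.589% of all tested probes did so. In Olig2cre/cre replicate 2, 5 of the 9 probes lay within the Olig2cre/+ range and 4 above it. In replicate 3, 1 lay within the range and 8 above it.

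No member passed the comparison of genotypes (0 of 9 tested probes, limma adjusted p under 0.05), where 4.42% of all tested probes passed. An unadjusted limma p under 0.05 was found for 1 of the 9, beside 3697 of all 14606 tested probes. The median difference of the 9 probes, Olig2cre/cre minus Olig2cre/+, was 2.12 on the log2 scale, beside 0.02 over all tested probes. Values were higher in every Olig2cre/cre tumour than in every Olig2cre/+ tumour for 3 of the 9 probes, and for 15.8% of all tested probes. Without Olig2cre/cre replicate 1 the median difference was 0.40 and again no member passed.

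**Figure D1:**
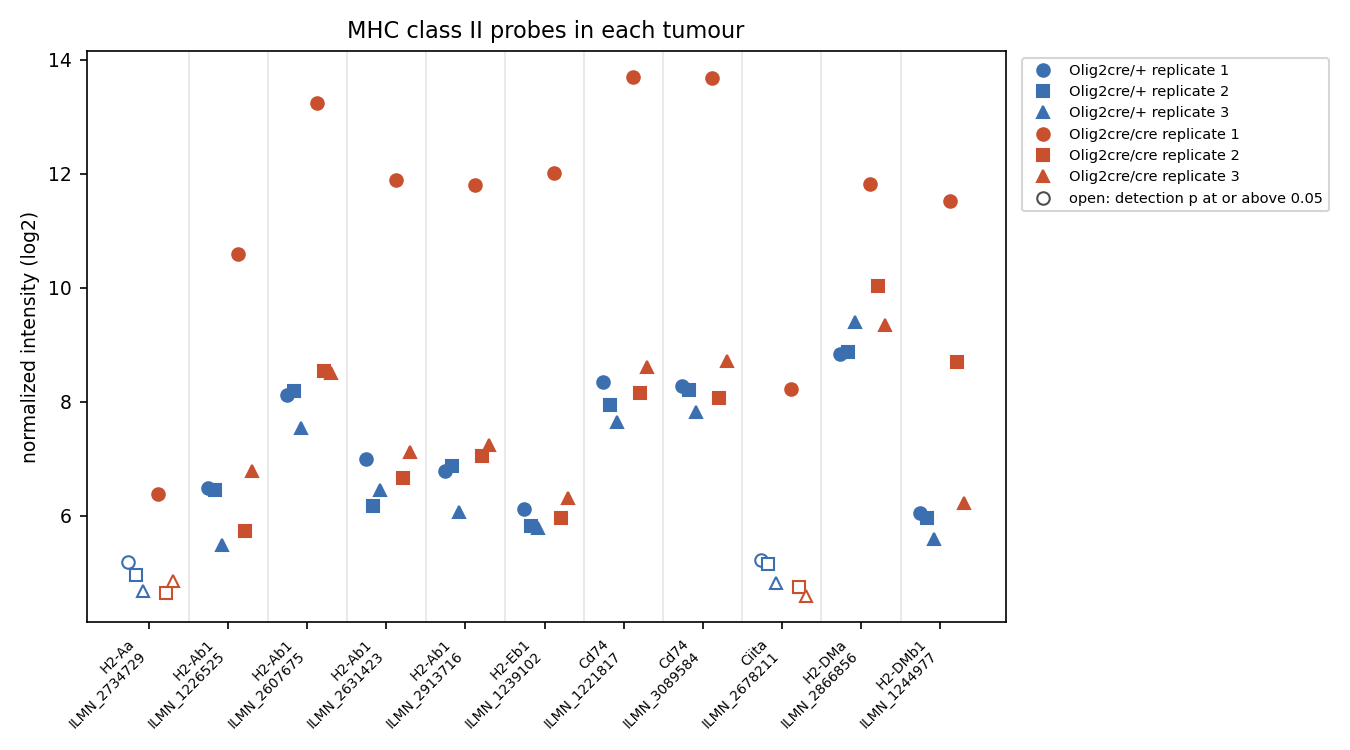
Normalized log2 intensity of each of the 11 MHC class II probes in each of the 6 tumours, with open symbols where the detection p-value was 0.05 or above. Olig2cre/cre replicate 1 is the highest point at 11 of 11 probes, and the H2-Aa and Ciita probes are detected only there.

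Ciita, the coactivator on which class II transcription depends, was detected in Olig2cre/cre replicate 1 and in no other tumour. Its probe (ILMN_2678211) read 5.22, 5.14 and 4.82 in Olig2cre/+ replicates 1 to 3 and 8.22, 4.75 and 4.58 in Olig2cre/cre replicates 1 to 3, as normalized log2 intensity. The signals before normalization were 164, 183 and 156 against 392, 156 and 148, with detection p-values of 0.0827 to 0.690 in the 5 tumours where it was not detected. Replicate 1 therefore stood alone, and the other Olig2cre/cre tumours read below every Olig2cre/+ tumour, at values not told apart from background. Where a probe was not detected, the fold is given as a bound, taking for each array the higher of the undetected value and the dimmest detected probe. Ciita in Olig2cre/cre replicate 1 was at least 7.40-fold above the Olig2cre/+ bound. No fold is given for the group, since 2 of its 3 values were not detected.

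H2-Ab1, the beta chain of the A molecule, was covered by 4 probes, and all showed the one high tumour. The brightest, ILMN_2607675, read 8.12, 8.20 and 7.54 in Olig2cre/+ and 13.24, 8.54 and 8.51 in Olig2cre/cre. Replicate 1 was 39.2-fold above the Olig2cre/+ mean, and replicates 2 and 3 were 1.50- and 1.47-fold above it. The groups did not overlap here, but the spread within Olig2cre/cre was large (10.10 ± 2.72 against 7.95 ± 0.36, SD, n = 3). The difference was 2.15 ± 1.21 (SE, 95% interval -0.70 to 4.99), or 4.42-fold, with a limma adjusted p of 0.321.

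Probe ILMN_2913716 of H2-Ab1 read 6.78, 6.87 and 6.07 in Olig2cre/+ and 11.81, 7.04 and 7.24 in Olig2cre/cre. Its groups did not overlap either, by a margin of 7.04 against 6.87, and its difference was 2.12 ± 1.20 (SE, limma adjusted p = 0.324). ILMN_2631423 read 6.99, 6.17 and 6.46 against 11.90, 6.67 and 7.12. Replicate 2 lay inside the Olig2cre/+ range at this probe, and the difference was 2.02 ± 1.28 (SE, limma adjusted p = 0.378). ILMN_1226525 read 6.49, 6.46 and 5.49 against 10.58, 5.73 and 6.79, with replicate 2 again inside the range. The last probe had the smallest rise in replicate 1 of the 4, 21.7-fold, and a difference of 1.56 ± 1.15 (SE, limma adjusted p = 0.453).

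H2-Eb1, the beta chain of the E molecule, showed the largest fold of the tested members in the one tumour. Its probe (ILMN_1239102) read 6.11, 5.83 and 5.79 in Olig2cre/+ and 12.004, 5.97 and 6.31 in Olig2cre/cre. Replicate 1 was 68.3-fold above the Olig2cre/+ mean, while replicate 2 at 1.04-fold lay within the Olig2cre/+ range and replicate 3 at 1.32-fold lay just above it. The difference between genotypes was 2.18 ± 1.48 (SE, 95% interval -1.31 to 5.68, limma adjusted p = 0.412).

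H2-Aa, the alpha chain that pairs with the product of H2-Ab1, gave a reading close to background on this array. Its probe (ILMN_2734729) read 5.19, 4.96 and 4.69 in Olig2cre/+ and 6.37, 4.64 and 4.85 in Olig2cre/cre, with a detection p-value of 0.00125 in Olig2cre/cre replicate 1 and 0.089 to 0.574 elsewhere. Signals before normalization were 163, 176 and 150 against 207, 150 and 163. In Olig2cre/cre replicate 1 the H2-Ab1 probes had signals of 1535 to 9589. How well the H2-Aa probe reads its transcript was not tested, so its values describe the probe. The one tumour was at least 2.06-fold above the Olig2cre/+ bound. No fold is given between the genotypes, because the Olig2cre/cre mean (5.29 ± 0.95, SD, n = 3) lay under that bound.

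Cd74 encodes the invariant chain, which holds new class II molecules in place and fills their groove until they reach the endosome. Probe ILMN_1221817 read 8.34, 7.95 and 7.64 in Olig2cre/+ and 13.70, 8.15 and 8.61 in Olig2cre/cre. Replicate 1 stood 52.9-fold above the Olig2cre/+ mean, replicate 2 lay inside the Olig2cre/+ range and replicate 3 was 1.56-fold above the mean. The raw signal of this probe was 13032 in replicate 1 and between 318 and 527 in the 5 other tumours. The difference was 2.18 ± 1.36 (SE, 95% interval -1.02 to 5.38, limma adjusted p = 0.370).

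The other Cd74 probe, ILMN_3089584, gave the same order of tumours at the top. It read 8.28, 8.20 and 7.83 against 13.68, 8.06 and 8.71. Replicate 2 lay inside the Olig2cre/+ range once more, and the difference was 2.05 ± 1.35 (SE, limma adjusted p = 0.397).

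The genes of the peptide editor departed from the others in Olig2cre/cre replicate 2. H2-DM removes the invariant chain remnant from class II molecules in the endosome and favours peptides that bind stably. H2-DMb1 (ILMN_1244977) read 6.05, 5.97 and 5.59 in Olig2cre/+ and 11.53, 8.70 and 6.21 in Olig2cre/cre. It was 50.6-, 7.10- and 1.27-fold above the Olig2cre/+ mean in replicates 1, 2 and 3, and the groups did not overlap. Its difference of 2.95 ± 1.17 (SE, 95% interval 0.18 to 5.71), or 7.70-fold, was the largest of the members, with an unadjusted p of 0.0398 and a limma adjusted p of 0.174. Leaving out Olig2cre/cre replicate 3 gave 4.24 ± 0.77 (SE) and a limma adjusted p of 0.0190, the only setting tried in which a member passed after adjustment. In that fit 1922 of all 14606 tested probes passed, beside 645 over all 6 tumours, so the pass is not particular to this gene. Leaving out replicate 1 gave 1.59 ± 0.68 (adjusted p = 0.237). H2-DMb1 has a close copy, H2-DMb2, so its probe may read both. The probe named for H2-DMb2 read 4.68 to 5.25 in Olig2cre/+ and 5.18 to 5.58 in Olig2cre/cre.

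H2-DMa (ILMN_2866856) was the tested member with the smallest rise in the one tumour. It read 8.84, 8.88 and 9.39 in Olig2cre/+ and 11.81, 10.03 and 9.34 in Olig2cre/cre, which is 6.86-, 1.99- and 1.23-fold above the Olig2cre/+ mean. Replicates 1 and 2 exceeded every Olig2cre/+ tumour and replicate 3 lay inside the range. The difference was 1.36 ± 0.60 (SE, 95% interval -0.07 to 2.78, limma adjusted p = 0.217). Without replicate 1 it was 0.65 (adjusted p = 0.318), and without replicate 3 it was 1.88 (adjusted p = 0.0679).

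**Figure D2:**
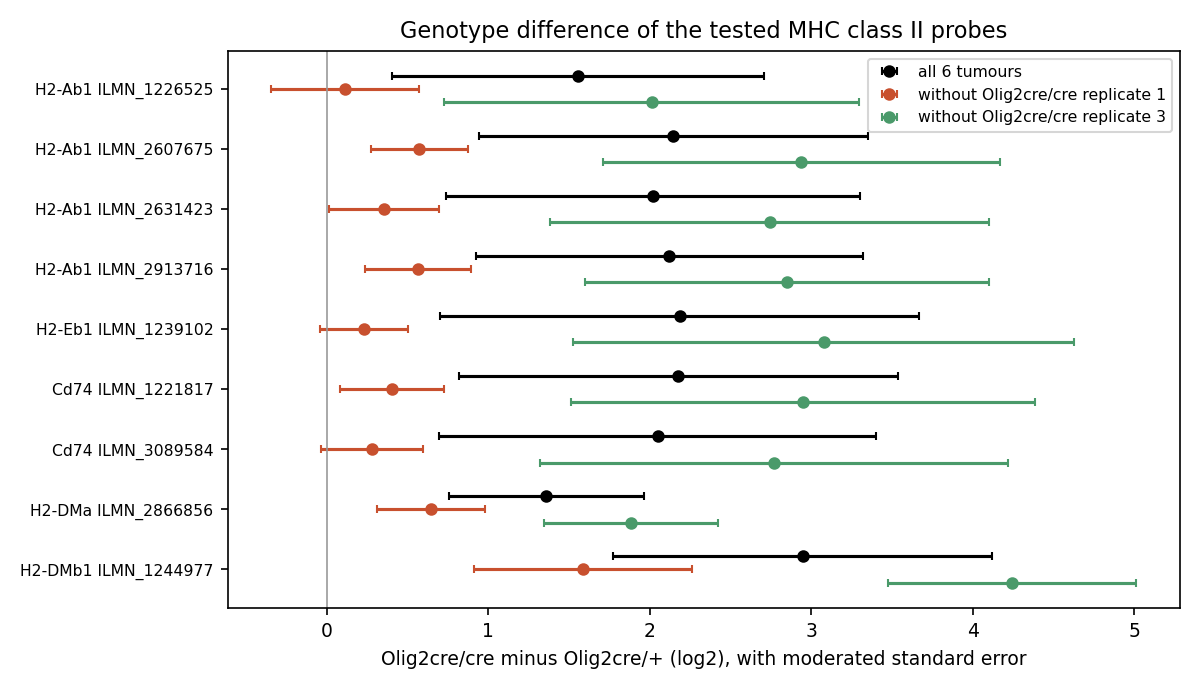
Difference between genotypes (Olig2cre/cre minus Olig2cre/+, log2, with the moderated standard error) of the 9 tested MHC class II probes, over all 6 tumours, without Olig2cre/cre replicate 1 and without Olig2cre/cre replicate 3. The median falls from 2.12 to 0.40 without replicate 1 and is 2.85 without replicate 3, and H2-DMb1 keeps the largest difference in each.

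Without Olig2cre/cre replicate 1, the chain genes and Cd74 differed by 0.11 to 0.57 on the log2 scale, with limma adjusted p-values of 0.327 to 0.916. The 4 H2-Ab1 probes differed by 0.11, 0.57, 0.35 and 0.56, H2-Eb1 by 0.23 and the Cd74 probes by 0.40 and 0.28. Each of the 9 tested probes was still higher in the mean of Olig2cre/cre.

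Genes elsewhere in the class II region were partly alike. H2-Ea, the alpha chain that pairs with the product of H2-Eb1, read 7.13, 7.03 and 7.03 in Olig2cre/+ and 13.51, 7.74 and 8.19 in Olig2cre/cre. It was 86.9-fold above the Olig2cre/+ mean in replicate 1, and the groups did not overlap (limma adjusted p = 0.276). H2-DMb2 differed by 0.41 (adjusted p = 0.371). H2-Ob, a chain of the H2-DM inhibitor H2-O, was detected only in Olig2cre/cre replicate 1, at least 1.23-fold above the Olig2cre/+ bound, and H2-Oa and H2-Eb2 were not detected on any array. Of this list, 0 of 2 tested genes passed, and their median difference was 1.58, or 0.61 without Olig2cre/cre replicate 1. Of probes detected on all 6 arrays the list kept H2-Ea alone, at 2.75.

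Of the factors that bind the X and Y boxes, 0 of 6 tested genes passed, and 1 fell with array weights. The median difference was -0.04, and the median in Olig2cre/cre replicate 1 was -0.18 relative to the Olig2cre/+ mean. Creb1, which binds the X2 box, differed by -1.13 (limma adjusted p = 0.115). Rfxank, an RFX subunit, differed by 0.46 (adjusted p = 0.339), and Nfyc, an NF-Y subunit, by -0.17 (adjusted p = 0.679). Rfx5, the DNA-binding RFX subunit, was not detected on any array.

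On the route from interferon gamma to Ciita, 1 of 7 tested genes rose and none fell, with a median difference of 0.53. The median was 0.39, 0.86 and 0.84 without Olig2cre/cre replicates 1, 2 and 3. Without replicate 1, 4 of the 7 genes were higher in the mean of Olig2cre/cre, beside 6 over all tumours, and 0 rose. Ifngr1, the ligand-binding chain of the interferon gamma receptor, read 8.20, 8.47 and 7.92 in Olig2cre/+ and 9.96, 9.40 and 9.92 in Olig2cre/cre. It was high in all 3 Olig2cre/cre tumours, 2.96-fold in the mean (limma adjusted p = 0.0322). It did not pass without any 1 of the Olig2cre/+ tumours, without Olig2cre/cre replicate 1 or 2, or with no detection filter. Without any 1 of the Olig2cre/+ tumours few probes passed at all, 9 to 69 of 14606, which applies to the lists below as well. Ifng itself was not detected in any tumour.

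Socs1, an interferon-induced inhibitor of JAK kinases, read 5.83, 5.13 and 5.36 in Olig2cre/+ and 8.06, 5.93 and 5.74 in Olig2cre/cre (limma adjusted p = 0.303). It stood out in the tumour with high class II, 6.15-fold above the Olig2cre/+ mean. Irf1, which acts on a Ciita promoter, was 3.22-fold above that mean in the same tumour, and Irf8, a transcription factor of myeloid cells, 3.75-fold. Jak1 differed by 0.72 (adjusted p = 0.302).

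Endosomal processing genes gave 0 of 8 past the threshold and a median of 0.49, which was 0.22 without background correction and 0.31 without Olig2cre/cre replicate 1. Ifi30, a thiol reductase that opens disulphide bonds of antigens, read 7.53 to 8.23 in Olig2cre/+ and 10.06, 8.63 and 8.32 in Olig2cre/cre (limma adjusted p = 0.187). Lgmn, an asparagine-specific protease, differed by 0.62 (adjusted p = 0.186), and Ctsd, the aspartic protease cathepsin D, by 0.44 (adjusted p = 0.325). Of genes for class II turnover, 0 of 2 passed. Sppl2a, a protease that cleaves the invariant chain remnant, differed by 0.78 (adjusted p = 0.141), and Cd83, which keeps class II at the surface, by -0.78 (adjusted p = 0.357).

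Costimulation genes gave 2 of 3 rising, with a median of 1.87, or 0.98 without background correction. Cd40, a receptor through which T cells activate antigen-presenting cells, read 6.38, 6.50 and 6.04 in Olig2cre/+ and 8.32, 7.86 and 8.35 in Olig2cre/cre, 3.65-fold (limma adjusted p = 0.0179). Another Cd40 probe (ILMN_2502136) rose as well (adjusted p = 0.0472), ILMN_2503129 did not pass (adjusted p = 0.519) and the remaining one was not detected. Icam1, an adhesion molecule also of endothelium, read 8.617, 8.001 and 7.393 against 10.373, 10.910 and 10.111, 5.51-fold (adjusted p = 0.0251). Without Olig2cre/cre replicate 1 the list still had 2 genes rising, without Olig2cre/cre replicate 2 or with no detection filter it had 1, and without any 1 of the Olig2cre/+ tumours 0. Cd86, a ligand of CD28, read 8.08, 7.53 and 8.02 against 10.06, 7.99 and 7.90, which was high in replicate 1 alone (adjusted p = 0.459).

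Genes of MHC class I and its peptide loading, which serve the cytosolic route, were also highest in Olig2cre/cre replicate 1, in 10 of 10. None passed (0 of 10), although 1 rose with array weights, and all were higher in the mean of Olig2cre/cre, with a median of 1.28. Relative to the Olig2cre/+ mean, the list's median was 3.23 in replicate 1, 0.43 in replicate 2 and 0.30 in replicate 3, beside 5.58, 0.59 and 0.40 for the 5 tested class II genes. Psmb9, an immunoproteasome subunit, was 28.2-fold above the Olig2cre/+ mean in replicate 1, and B2m, the light chain of class I, 2.99-fold. Tap2, a subunit of the peptide transporter, had the lowest adjusted p of the list (0.0911). The median of the class I list was 0.45 without replicate 1, 1.94 without replicate 3 and 0.79 without background correction.

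**Figure D3:**
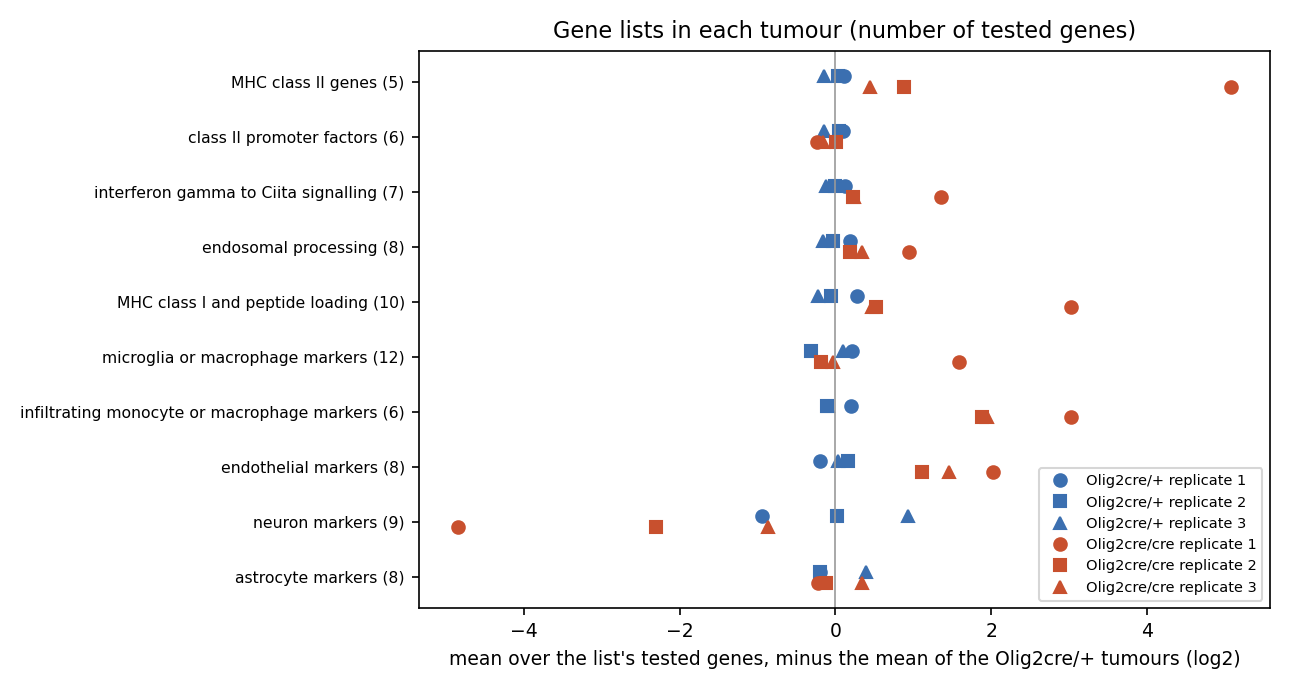
Mean over the tested genes of each list with at least 5 of them, in each tumour, relative to the mean of the Olig2cre/+ tumours (log2), with the number of tested genes in brackets. The MHC class II genes lie at 5.08, 0.88 and 0.44 in Olig2cre/cre replicates 1, 2 and 3, and the neuron markers at -4.84, -2.30 and -0.87.

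Markers of other cells moved with the class II genes in Olig2cre/cre replicate 1, and their part in the result was not tested. Microglia or macrophage markers were highest in that tumour in 11 of 12 tested genes, with medians of 1.54, 0.03 and -0.05 in Olig2cre/cre replicates 1, 2 and 3 relative to the Olig2cre/+ mean. Their summed linear intensity was 46882 in replicate 1, 17814 and 16094 in replicates 2 and 3, and 14162 to 20519 in Olig2cre/+. None of the 12 passed, and the median difference was 0.60, or 0.27 without Olig2cre/+ replicate 2 and -0.01 without Olig2cre/cre replicate 1, where 1 of the 12 fell. P2ry12, a purine receptor of microglia, had the lowest adjusted p (0.137). Of the 12, 11 were higher in the mean of Olig2cre/cre and 1 was lower, with differences from -1.38 to 1.16. Adgre1, an adhesion receptor of mature macrophages, was 6.83-fold above the Olig2cre/+ mean in replicate 1 and Aif1, which encodes Iba1, 4.90-fold.

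Markers of infiltrating monocytes or macrophages rose in 2 of 6 tested genes, with a median of 2.53. Ms4a7, a membrane protein of macrophages, rose 14.1-fold (limma adjusted p = 0.0467), with 11.83, 8.95 and 8.85 in Olig2cre/cre against 5.63 to 6.56 in Olig2cre/+. Another Ms4a7 probe (ILMN_3019158) was detected only in Olig2cre/cre replicates 1 and 3 and was not tested. That probe read 8.29, 5.12 and 5.65 in Olig2cre/cre against 4.62 to 5.10 in Olig2cre/+, so it was clearly high in replicate 1 alone. Lyz2, the macrophage lysozyme, rose 5.11-fold (adjusted p = 0.0146). A further Lyz2 probe (ILMN_2939681) did not pass (adjusted p = 0.0580). The list again had 2 genes rising without any 1 of the Olig2cre/cre tumours, but 1 with an offset of 50, without background correction (or, equally, on the authors' table), with cyclic loess or with no detection filter, 4 with array weights, and 0 without any 1 of the Olig2cre/+ tumours. The summed intensity of the list was 15151, 5998 and 7612 in Olig2cre/cre and 1361 to 1921 in Olig2cre/+, and Lyz2 made up most of it in replicates 2 and 3. Cd163, a scavenger receptor of macrophages, was 0.895-fold of the Olig2cre/+ mean in replicate 1 and its groups overlapped. Ccr2, a chemokine receptor of monocytes, was detected in 1 Olig2cre/+ tumour and no Olig2cre/cre tumour, and Ms4a4c and Itga4 on no array. Mrc1, the mannose receptor, was 38.8-fold above the Olig2cre/+ mean in replicate 1.

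Lymphoid and dendritic cell markers were mostly below detection. The dendritic cell genes Itgax, Xcr1, Clec9a and Cd209a were not detected on any array, while Clec10a, a lectin of dendritic cells and macrophages, was detected only in Olig2cre/cre replicate 1, at least 5.27-fold above the Olig2cre/+ bound. Batf3, a transcription factor of conventional dendritic cells, was detected on all 6 arrays and read 7.25, 6.40 and 6.24 in Olig2cre/+ against 7.82, 7.72 and 7.49 in Olig2cre/cre, without overlap (limma adjusted p = 0.103). Zbtb46, another factor of these cells, was detected on 2 arrays per genotype (adjusted p = 0.858). Summed intensity of the dendritic list was 674 in that tumour and 332 to 468 in the others. Of the B cell markers, Cd79a, Ms4a1 and Pax5 were not detected on any array, although Cd79b was at least 4.61-fold above the Olig2cre/+ bound in replicate 1, with a list sum of 735 beside 184 to 268. Of the T or NK cell markers, Cd8a, Cd2, Ncr1, Gzma and Gzmb were not detected anywhere, while Cd3g and Nkg7 were detected only in replicate 1, at least 4.37- and 6.76-fold above the bound, with a list sum of 712 beside 305 to 316. No marker of these 3 lists passed (0 of 2, 0 of 1 and 0 of 1 tested).

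Endothelial markers rose in 4 of 8 tested genes, with a median of 1.41, and their summed intensity was 9417, 4800 and 6547 in Olig2cre/cre against 2015 to 2833 in Olig2cre/+. The members that rose were Emcn, Pecam1, Tie1 and Esam. Without Olig2cre/+ replicates 1, 2 and 3 the list had 0, 0 and 1 genes rising, without Olig2cre/cre replicate 1 or 2 it had 2, and without Olig2cre/cre replicate 3 or with array weights 5. It had 3 with cyclic loess, with no detection filter, among probes detected on all 6 arrays and without background correction, where the median was 0.80. Neuron markers went the other way in the same tumour: their summed intensity was 1108 in Olig2cre/cre replicate 1, 7292 and 22336 in replicates 2 and 3, and 22858 to 62644 in Olig2cre/+. All 9 tested neuron markers were lower in the mean of Olig2cre/cre, with a median of -2.98, and none passed. The median was -1.74 without Olig2cre/cre replicate 1. Without Olig2cre/cre replicate 3, 6 of the 9 fell, with a median of -4.03, and 2 fell with array weights. Astrocyte markers had a median of 0.17, or -0.05 without Olig2cre/cre replicate 2 and 0.09 without replicate 1, and 0 of 8 passed, while 2 fell without Olig2cre/cre replicate 3 and 1 rose with array weights.

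The 8 genes whose pattern was closest to that of the members were found by the root mean square difference, over the 6 tumours, from the mean profile of the 9 tested class II probes, each profile taken relative to its own mean. Among 9845 ranked genes this difference had a median of 1.88. The class II profile lay 5.13, 0.53 and 0.53 above the Olig2cre/+ mean in Olig2cre/cre replicates 1, 2 and 3. The member probes themselves differed from it by 0.12 to 0.46, except H2-DMb1 at 0.86 and H2-DMa at 0.97.

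Cxcl9, a chemokine induced by interferon gamma, was the closest gene, at 0.32. It read 5.12, 4.95 and 4.86 in Olig2cre/+, where it was not detected, and 9.42, 5.48 and 5.85 in Olig2cre/cre. Replicate 1 was at least 17.0-fold above the Olig2cre/+ bound. Next came Fam167b at 0.32, Tmem82 at 0.40 and Abca15 at 0.41. Gpihbp1, which anchors lipoprotein lipase on capillaries, lay at 0.43. Ccl8, a chemokine for monocytes, lay at 0.45 and read 6.25, 4.80 and 5.56 against 10.34, 6.39 and 5.76. H2-Ea followed at 0.50 and H2-D1, a class I heavy chain, at 0.51. None of the 8 passed the comparison of genotypes (limma adjusted p = 0.182 to 0.442). They were chosen on these same arrays for a profile with 1 high tumour. Their peak in replicate 1 and their wide spread within Olig2cre/cre therefore follow from the choice.

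**Figure D4:**
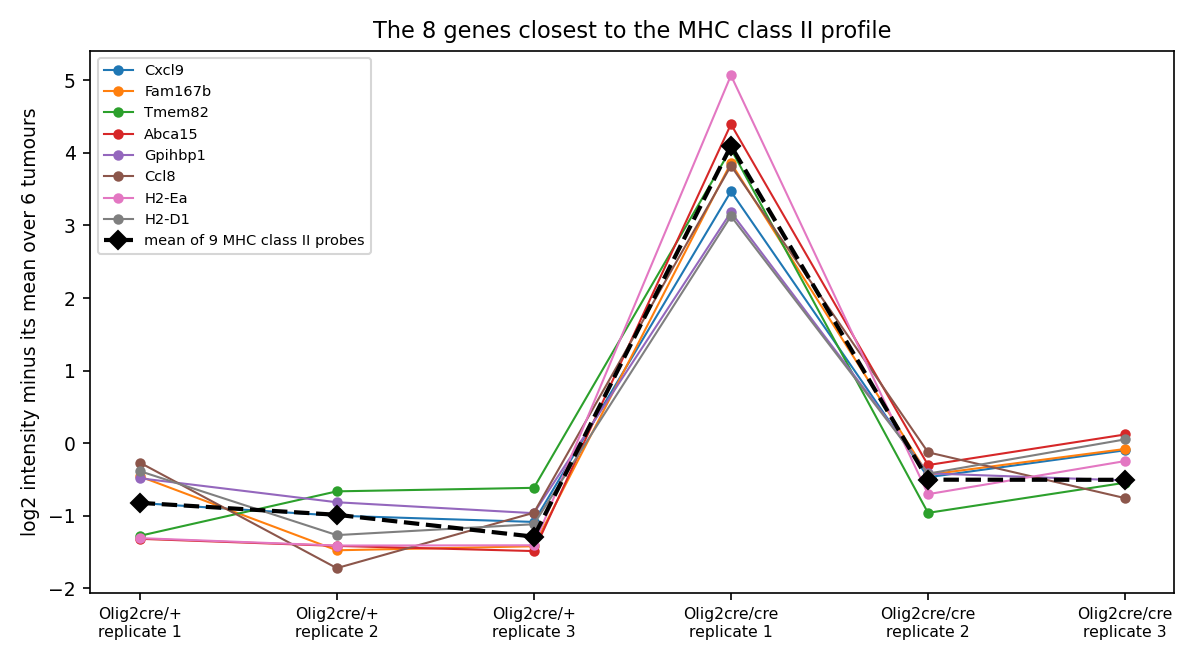
Log2 intensity relative to its mean over the 6 tumours for the 8 genes closest to the class II profile, with the mean of the 9 tested MHC class II probes as a dashed line. All 8 peak in Olig2cre/cre replicate 1, which follows from how they were chosen. The class II mean lies at 4.10 there and between -1.29 and -0.50 in the other tumours.

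Over the whole array, 645 of 14606 tested probes passed, 387 higher and 258 lower in Olig2cre/cre, and this count was 9 to 69 without any 1 of the Olig2cre/+ tumours and 116 to 1922 without any 1 of the Olig2cre/cre tumours. Between 53.4% and 57.6% of probes were detected per array, and the median signal ran from 182.6 to 210.0. Olig2cre/cre replicate 3 correlated with the Olig2cre/+ tumours at 0.914 to 0.941 and with the other Olig2cre/cre tumours at 0.886 and 0.928 across tested probes. Olig2 itself read 7.76, 7.85 and 7.13 in Olig2cre/+ and 6.41, 5.86 and 6.44 in Olig2cre/cre (limma adjusted p = 0.0555), without overlap. The position of its probe relative to the cre insertion was not used here, so this is a partial check of the labels.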

How the data were processed

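Total RNA of 6 brain tumours, 3 per genotype, was measured on a 1-colour Illumina bead array. The authors deposited probe signals as linear intensity, not normalized, with a p-value for detection beside each, per the file headers. A second table that the authors deposited holds intensity values, which matched those of 1 array per column, within the same genotype, after quantile normalization. Replicate numbers 1 and 3 were exchanged between the tables in both genotypes, which leaves the genotypes unaffected. Arrays carry the numbers of the signal table, so the ages of 45 and 47 days may be swapped. Scanner software and batches: not given in the sources used here.

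Background was corrected with normexp, for which the negative controls were inferred from detection p-values. After adding an offset of 16, arrays were quantile-normalized and log2-transformed by neqc of limma 3.58.1 in R 4.3.3. The 14606 probes detected on at least 3 arrays were fitted with genotype as the only term (lmFit and eBayes), two-sided, with Benjamini-Hochberg adjustment over all of them and a threshold of 0.05. The procedure was tested on simulated data. The 6 arrays limit the precision. Of 25697 probes, 23978 were named from the platform annotation and 23962 matched to current symbols. Outside the members, a gene was represented by its tested probe with the highest mean. The rule was to name up to 3 genes per list by smallest p, any past the threshold, and the 8 genes closest in pattern. Other genes were named after their values were seen. The members and all lists were chosen with earlier results of these data known. Alternatives were no background correction, an offset of 50, cyclic loess, the authors' normalized table, other detection filters, array weights, a replicate block, the unadjusted p and leaving out each tumour.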

Additional observations from a re-analysis of the deposited data

How the results depend on the processing

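The count of member probes past the threshold ran from 0 to 1 over the 6 fits that left out 1 tumour. H2-DMb1 passed without Olig2cre/cre replicate 3, where 1922 of all 14606 tested probes passed. At an unadjusted p under 0.05 the count was 1, beside 3697 of all 14606 tested probes, and in the other alternatives it was 0. The median difference of the members was 1.52 without background correction, 1.52 on the authors' normalized table (the same values, so no separate check), 1.92 with an offset of 50, 2.13 with cyclic loess, 2.05 over all 11 probes with no detection filter, 2.12 over probes detected on all 6 arrays and 1.59 with array weights. Leaving out 1 tumour gave medians of 0.40 to 2.97, the lowest without Olig2cre/cre replicate 1. Every member probe that was fitted was higher in the mean of Olig2cre/cre in each alternative, beside 51.5% of all tested probes in the main fit. Alternatives that kept Olig2cre/cre replicate 1 share its high values, so they are not separate checks of this direction. Among lists with no call over all 6 tumours, small medians changed sign: class II promoter factors from -0.04 to 0.02 with array weights, astrocyte markers from 0.17 to -0.01 without Olig2cre/+ replicate 1, microglia or macrophage markers from 0.60 to -0.01 and the 1 tested B cell marker from 0.24 to -0.74 without Olig2cre/cre replicate 1. The medians of class II turnover and of the 1 tested T or NK cell marker, both near 0, changed sign in several alternatives.

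The labels give both genotypes the same replicate numbers and, with them, the same ages. Same-numbered tumours deviated together at r = 0.19, 0.02 and 0.30, all positive. A working cut-off of 0.1 in every pair was not met, so the main fit took the numbers as shared labels only. Whether they mark a pairing was not settled. With a replicate block 0 member probes passed (median 2.12, lowest adjusted p 0.0970), 4 of 9 neuron markers fell, and 2 of 10 class I genes and 3 of 6 monocyte or macrophage markers rose, while calls over the whole table went from 645 to 1382. Of all probes, 411 passed without background correction, 230 with no detection filter and 1860 with array weights. The H2-Aa and Ciita probes lay near background in the 5 tumours without detection, so the data bound only the signal of these probes there.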
